A study of Oryza sativa Indica Group with 17 samples.

Results

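The 4 alleles of the rice lesion mimic locus spl1 described here were compared by mutagen, 2 made with the chemical diepoxybutane (DEB) and 2 made with radiation. The lines were chosen by their sample titles and make up 4 of the 17 arrays of the series, with 16 mutant lines and 1 wild type check in all. D1137 and D2943 came from DEB treatment, G650 from gamma rays and F1856 from fast neutrons. All are lines of the indica variety IR64 that had been advanced to the M4 or M5 generation, and complementation testing placed all 4 at spl1. Genomic DNA came from leaves of greenhouse plants aged 45 days, and unmutagenized IR64 was the reference for each line. Each line has 1 deposited column of values, so a group holds 2 lines and its spread is the spread between independent alleles, not between repeat hybridizations of an allele. The question was how the alleles made with a chemical and those made with radiation differ in flagged probes at the gene, around it and over the rest of the array.

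The gene at spl1 is CYP71P1 (LOC4351945, synonyms SL and T5H) on chromosome 12. It encodes a cytochrome P450 that hydroxylates tryptamine to serotonin, and rice plants without it form the large orange-brown Sekiguchi lesions. DEB is a bifunctional alkylating agent that gives base changes as well as small deletions, whereas gamma rays and fast neutrons break both strands of DNA and often remove longer stretches. A base change alters the target of very few of the short probes on an array, whereas a deletion takes the target of every probe inside it, which is why flagged probes can tell such alleles apart only by how many probes of a gene are affected.

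The study's primers for the P450 gene and for the gene just before it are given here, because these 2 genes carry the comparison that follows. The P450 primers were written for the locus name LOC_Os12g16720, and all are shown whole in lower case, 5′ to 3′.
CytP450-4F: cttgcttctctgcttagtcacaatatt
CytP450-4R: cttccccacttaaccacggttag
3F: ccaacacatctccattgctg
cDR: cactcgaagtggtagag
cDF: atcatcaaggagacgtt
4R: aactggcgctacgctacatc
The pair for LOC_Os12g16690, which a shared transcript record ties to LOC4351944, was as follows.
LOC_Os12g16690 forward: atgccgcagctaaatgtgga
LOC_Os12g16690 reverse: aaccttgtgagtgccaacga

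The measurement is the share of flagged probes. A probe set on the Affymetrix Rice GeneChip holds mostly 11 perfect match probes of 25 bases, a probe was flagged where its signal in the mutant was low against wild type, and the deposited value is the flagged fraction of the set. A probe set or gene was called here at a share of 0.5 or more, and a gene measured by several sets took their median. The array has 57194 probe sets, and the 22436 that pair with a single gene measure 17903 nuclear genes. The wild type check is labelled as IR64 wild type DNA set against wild type, and which hybridization served as its reference was not given in the sources used here, so its values are a background of wild type against wild type whose reference may differ from that of the lines. It had a mean share of 0.0745 and 55.5% of its sets above 0, yet only 11 called sets (0.0192%) and 1 called gene (0.00559%). Over the 12 other mutant lines the mean share ran from 0.00993 to 0.176 with a median of 0.0381, and called sets ran from 17 to 1461 with a median of 72.

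At CYP71P1 the radiation alleles had most probes flagged and the DEB alleles few or none. The gene is measured by 2 sets of 11 probes, 22 probes in all. In G650, 7 probes of one set and 8 of the other were flagged, 15 of 22 or 68.2% (95% exact binomial interval 45.1 to 86.1). F1856 gave the same counts in the same sets, 7 and 8. In D1137, 2 probes of each set were flagged, 4 of 22 or 18.2% (5.19 to 40.3). In D2943 none of the 22 was flagged, for which 3 counts of the total give an upper limit of 13.6%. By sequencing, the study found base changes in this gene in both D1137 and D2943, which it predicted to alter amino acids. A base change there thus left no flagged probe in D2943. The wild type check had 3 of 22 flagged, or 13.6% (2.91 to 34.9). These intervals cover counting error only, since neighbouring probes can overlap. Both radiation alleles therefore stood above both DEB alleles and above the check, while the interval of D1137 overlapped that of the check. A share of 0.182 or more was found at 11.2% of all genes in D1137, whereas 0.682 or more was found at 0.0279% of genes in G650 and at 0.0559% in F1856.

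The mean share at CYP71P1 was 0.0909 ± 0.129 (SD, n = 2) in the DEB alleles and 0.682 ± 0 (SD, n = 2) in the radiation alleles, a difference of 0.591. An exact two-sided permutation test over the 4 lines has 6 arrangements and cannot give a p under 0.333, which is the p found here (exact permutation p = 0.333). Over the 11 group comparisons made in this way, the Benjamini-Hochberg adjusted value of each such p was 0.407 (exact permutation tests), so none could pass a threshold of 0.05 and the order of the single lines carries the information. A further pair of radiation lines with the lesion phenotype but no complementation test, G9799 (gamma rays) and F2045 (fast neutrons), each had 14 of 22 probes flagged, or 63.6%. The 10 remaining mutant lines had shares at the gene between 0 and 0.227, with a median of 0.

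Around the gene, the radiation alleles had runs of called genes on 1 side of CYP71P1 and the DEB alleles had none. Genes were placed in the order of the japonica reference annotation, and the 25 measured genes on each side of CYP71P1 were taken with it, 51 genes in all. LOC4351944, just before CYP71P1, had a share of 1 in both G650 and F1856, and of 0 in D1137, D2943 and the wild type check. LOC4351940, 2 genes before, had 0.818 in G650, 0.727 in F1856 and 0 in both DEB alleles, against 0.0909 in the check. LOC4351938, 3 genes before, had 0.545 in G650, 0.727 in F1856 and 0 in both DEB alleles, with 0.0909 in the check. These 3 genes were named because they were called around CYP71P1, so their shares are given as values and were not tested. Over CYP71P1 and these 3 genes the mean share was 0.761 in G650 and 0.784 in F1856, against 0.0455 in D1137, 0 in D2943 and 0.0795 in the check.

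**Figure D1:**
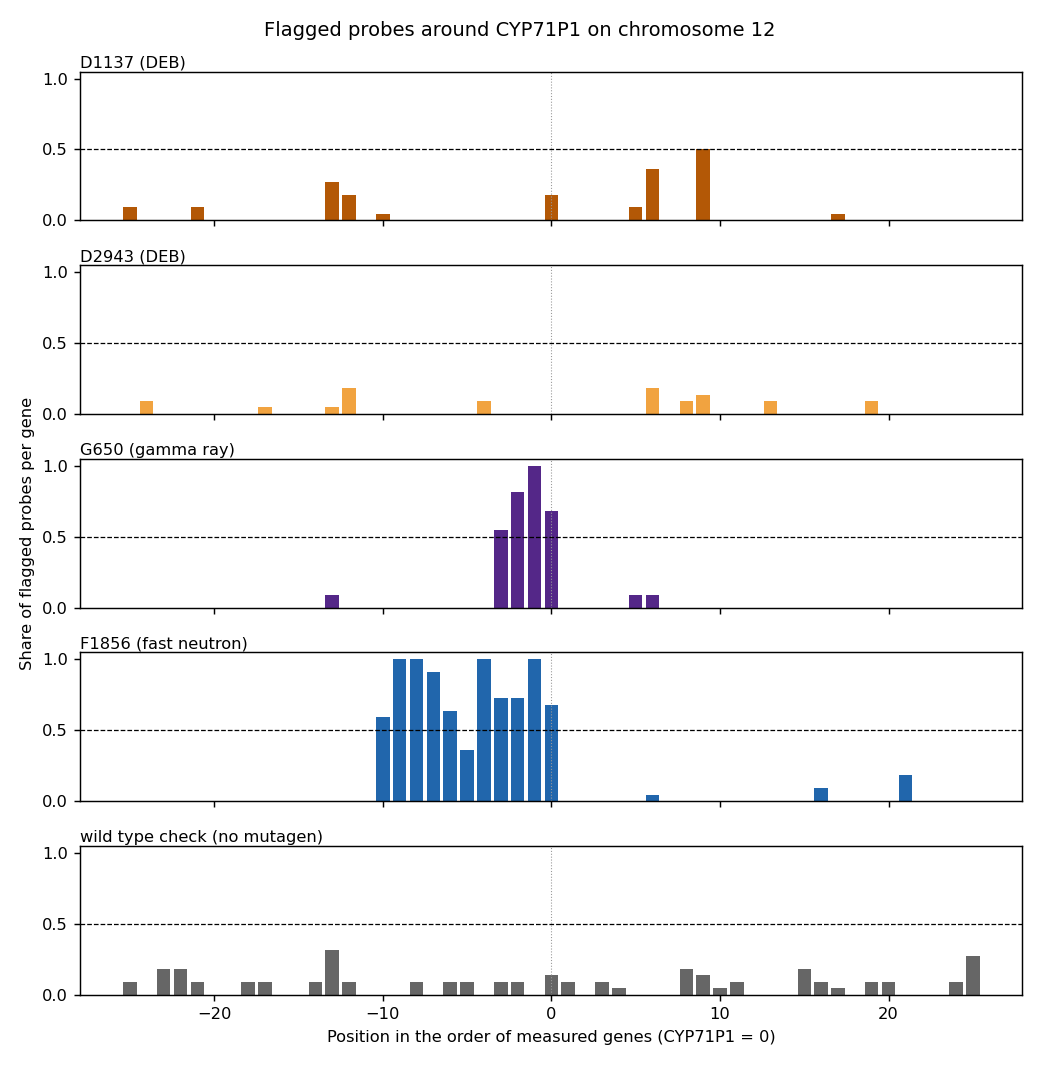
Share of flagged probes of each measured gene (vertical axis, 0 to 1) against its position in the order of measured genes on chromosome 12 (horizontal axis, CYP71P1 at 0), with a panel for each of the 4 alleles and 1 for the wild type check; the dashed line marks a share of 0.5. Bars over the line start at CYP71P1 and run to the left over 4 genes in G650 and over 11 genes with 1 gap in F1856, whereas D1137 only touches the line at the ninth gene to the right and D2943 stays below it.

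The radiation alleles differed from each other in how far the run reached. LOC4351932, the next gene before those 3, was at 0 in G650 and at 1 in F1856. LOC4351922 and LOC4351919 were also at 0 in G650 and at 1 in F1856, and LOC4351923 was at 0 and 0.909. LOC4351925 had 0.636 in F1856 and LOC4351918, the far end of the run, 0.591, both with 0 in G650. LOC4351929 fell below the threshold in F1856 with a median of 0.364, and its 3 probe sets there had shares of 0, 0.364 and 1. Over these 7 genes the mean share was 0.786 in F1856 and 0 in G650, with 0.00649 in D1137, 0.0130 in D2943 and 0.0390 in the check. Thus every share of G650 over these genes was 0, and the run of F1856 was the longer of the pair by these 7 genes. In G9799 and F2045 the same 7 genes had means of 0.792 and 0.675.

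Beyond the runs the shares of the radiation alleles dropped to near 0 within 1 gene. On the far side of CYP71P1, LOC9270227, LOC4351951 and LOC4351953 were at 0 in all 4 alleles. Over the 25 genes on that side the mean share was 0.00727 in G650 and 0.0127 in F1856, with no gene above 0.182. Over the 15 genes before LOC4351918 it was 0.00606 in G650 and 0 in F1856. The DEB alleles were higher than the radiation alleles in both flanks, with 0.0400 and 0.0424 in D1137 and 0.0236 and 0.0242 in D2943, and the wild type check was higher still, with 0.0618 and 0.0818.

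Counted over the neighbourhood, G650 had 4 of 51 genes called (7.84%) and F1856 had 10 (19.6%). The share of called genes over all 17903 genes was 0.0559% in G650 and 0.067% in F1856. D1137 had 1 called gene of 51 (1.96%) with 1.69% over all genes, and D2943 had 0 with 0.0168%, so the calls of the DEB alleles near CYP71P1 were close to or below the share over all genes. The called gene of D1137 was LOC4351964, 9 genes past CYP71P1, whose share lay exactly at the threshold of 0.5, against 0.136 in D2943 and 0 in G650 and F1856. The DEB mean was 0.5 ± 0.707 called genes and the radiation mean 7 ± 4.24 (SD, n = 2 each), a difference of 6.5 (exact permutation p = 0.333).

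The mean share over the neighbourhood can be set against the rest of the same array. In G650 it was 0.0651 in the neighbourhood and 0.00368 over all other genes, a ratio of 17.7. In F1856 it was 0.176 and 0.00345, a ratio of 50.9. In D1137 it was 0.0365 and 0.0493, a ratio of 0.741, and in D2943 it was 0.0205 and 0.0218, a ratio of 0.941. The check had a ratio of 0.808, so both DEB alleles, like the check, had no more flagged probes near the gene than elsewhere. The difference of neighbourhood minus rest averaged 0.117 ± 0.0783 in the radiation alleles and -0.00703 ± 0.0081 in the DEB alleles (SD, n = 2 each), 0.124 apart (exact permutation p = 0.333). Taken alone, the neighbourhood means were 0.120 ± 0.0781 and 0.0285 ± 0.0113, a difference of 0.0918 (exact permutation p = 0.333). G9799 and F2045 had ratios of 5.13 and 4.52, lower than those of G650 and F1856, with shares of 0.208 and 0.195 in the neighbourhood and of 0.0405 and 0.0432 elsewhere.

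**Figure D2:**
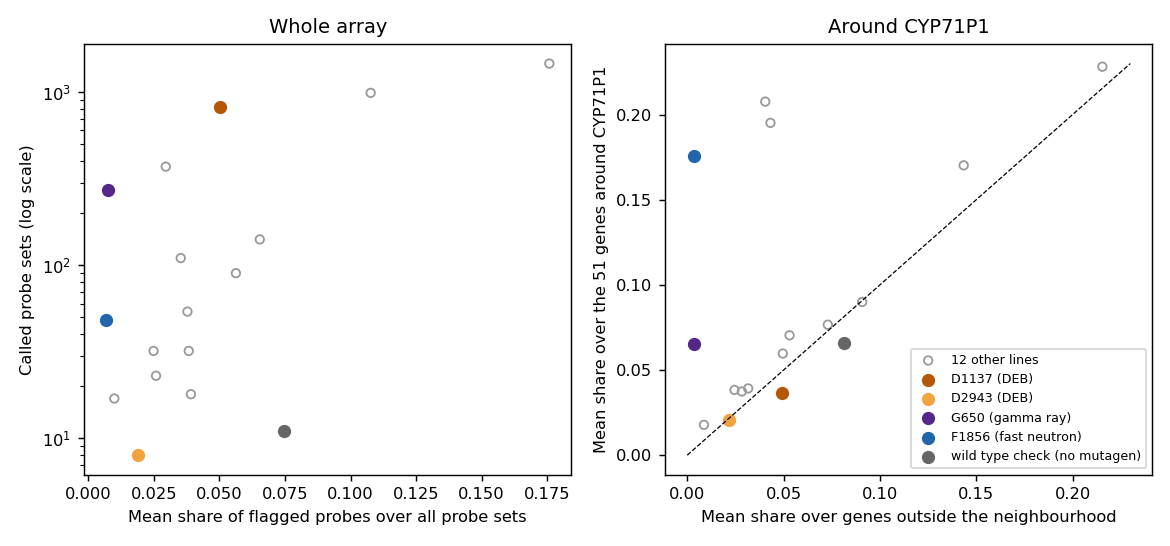
Left, called probe sets (log scale) against the mean share over all probe sets; right, mean share over the 51 genes around CYP71P1 against the mean share over all other genes, with the dashed line at equality. Each point is 1 array, with the 4 alleles and the wild type check filled and the 12 other lines open; G650 and F1856 sit at the far left of both panels and well above the line, whereas D1137 and D2943 lie just under it.

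Over the whole array, D1137 and D2943 had more flagged probes than G650 and F1856, but the further pair of radiation lines did not keep this order. The mean share was 0.05 in D1137 and 0.0189 in D2943, against 0.00768 in G650 and 0.00684 in F1856. F1856 and G650 were the lowest and the next lowest of all 17 arrays, D2943 was in place 4 and D1137 in place 12. Probe sets with a share above 0 but below 0.5 made up 25.4% of the array in D1137 and 17.2% in D2943. In G650 they made up 3.20% and in F1856 6.14%. A base change covered by a probe could fall into this class, whereas a base change outside all probes would not. The wild type check, with no mutagen, had 55.5% of its sets in this class, more than any of the 4 alleles. The DEB and radiation means were 21.3% ± 5.82 and 4.67% ± 2.08 (SD, n = 2 each), a difference of -16.6 percentage points (exact permutation p = 0.333), and the mean shares differed by -0.0272 (exact permutation p = 0.333). G9799 and F2045 had mean shares of 0.0378 and 0.0353, above that of D2943, and 31.8% and 27.2% of their sets in the class of low shares, above both DEB alleles. With them counted as radiation lines the differences shrank to -4.22 percentage points (exact permutation p = 0.733) and to -0.0126 in mean share (exact permutation p = 0.467). The study hybridized G650 and F1856 more than once while the method was being set up, and whether their deposited values rest on more than 1 hybridization was not given in the sources used here. For the background of the arrays, mutagen and number of hybridizations therefore cannot be told apart.

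The number of called probe sets did not follow the mutagen. D1137 had 824 (1.44% of 57194), D2943 had 8 (0.014%), G650 had 273 (0.477%) and F1856 had 48 (0.0839%). The paper's own counts of predicted deletions by line leave out D1137. The study discarded arrays that deviated strongly from wild type, and whether that of D1137 was among them was not given. The 2 DEB alleles were the highest and the lowest of the 4, so that D2943 had fewer called sets than the wild type check. The group means were 416 ± 577 and 160.5 ± 159 (SD, n = 2 each), a difference of -255.5 (exact permutation p = 1), and without D1137 its sign turned, to 152.5. The called genes again had D1137 at the top and D2943 at the bottom, with 302 in D1137 (1.69% of 17903), 12 in F1856 (0.067%), 10 in G650 (0.0559%) and 3 in D2943 (0.0168%). Their group means were 152.5 ± 211 and 11 ± 1.41 (SD, n = 2 each; exact permutation p = 1).

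Among the called sets, both radiation alleles differed from both DEB alleles in how completely a set was flagged. In D1137 the number of sets fell at each further flagged probe, from 375 sets with 6 of 11 to 244, 132, 48, 11 and 7 sets with all 11. D2943 fell likewise, from 5 sets with 6 of 11 to 1 set each with 7, 8 and 9, and none above. In G650 the number rose instead, from 15 sets with 6 of 11 and 27 with 7 to 62, 61 and 61 with 8, 9 and 10, and 46 with all 11. F1856 had 4 sets with 6 of 11, then 9, 13, 6 and 5, and 11 with all 11. The sets of G650 and F1856 thus formed a separate group at high shares, with the fewest sets at 6 of 11, whereas the DEB alleles had no such group.

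**Figure D3:**
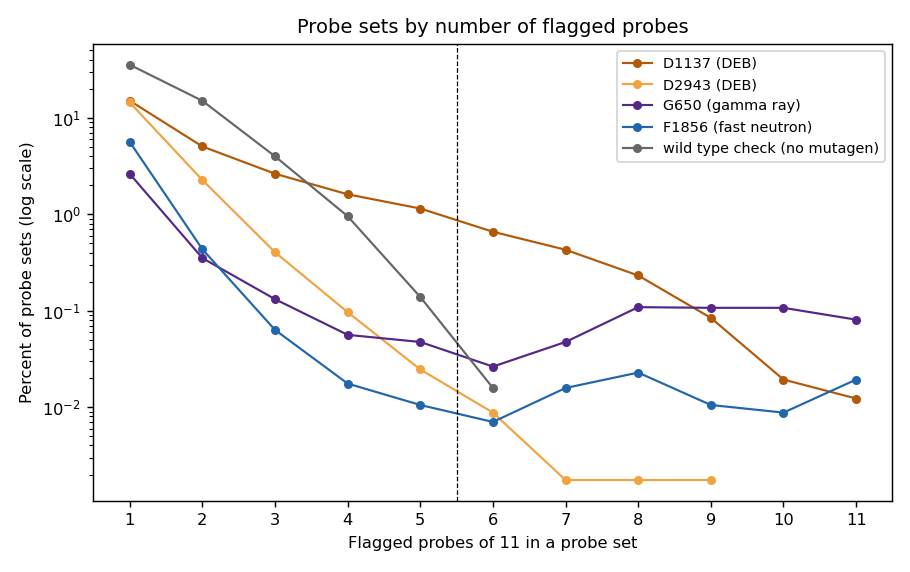
Percent of the 57008 probe sets of 11 probes (vertical axis, log scale) that had 1 to 11 flagged probes (horizontal axis) in each of the 4 alleles and the wild type check; the dashed line marks the threshold of 0.5, and a count of 0 sets has no point. The curves of D1137, D2943 and the check decline, to 7 sets at 11 probes in D1137, whereas those of G650 and F1856 are lowest at 6 probes and stand higher at 7 to 11.

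Of the called sets with 11 probes, 9 or more probes were flagged in 168 of 272 in G650, or 61.8% (95% exact binomial interval 55.7 to 67.6), and in 22 of 48 in F1856, or 45.8% (31.4 to 60.8). In D1137 this was 66 of 817, or 8.08% (6.30 to 10.2), and in D2943 it was 1 of 8, or 12.5% (0.316 to 52.7). In the wild type check it was 0 of 9. These intervals treat probe sets as independent, whereas sets inside the same deletion are lost together. They do not measure the spread between arrays. G650 and F1856 were above all of the 12 other mutant lines, which ran from 0% to 32.5% with a median of 6.12%, and both DEB alleles lay inside that range. Among those lines, the other lines labelled gamma ray ran from 0% in G6728 to 30.8% in G9799. The highest value, 32.5%, was that of d1, which is labelled DEB but which the paper describes as a gamma ray mutant. A high percentage was thus not general to radiation lines. For G650 and F1856, mutagen and number of hybridizations cannot be told apart here either. The group means were 10.3% ± 3.13 and 53.8% ± 11.3 (SD, n = 2 each), 43.5 percentage points apart (exact permutation p = 0.333). G9799 had 30.8% and F2045 18.1%, and with them counted as radiation lines the difference was 28.8 percentage points (exact permutation p = 0.133). With the sets around CYP71P1 left out the difference was 40.8 percentage points, with 62.2% in G650 and 40.0% in F1856, so it did not rest on the sets around CYP71P1.

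The threshold of 0.5 therefore cut the alleles at different places. Just outside and just inside it, with 5 and 6 of 11 probes flagged, D1137 had 653 and 375 sets, D2943 had 14 and 5, G650 had 27 and 15 and F1856 had 6 and 4. At a threshold of 0.8 D1137 kept 69 of its 824 sets and D2943 kept 1 of 8, whereas G650 kept 169 of 273 and F1856 kept 22 of 48. All 11 probes, or all probes of a smaller set, were flagged in 7 sets of D1137, none of D2943, 46 of G650 and 11 of F1856.

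The called sets also differed by allele in where they could be placed. Of the 273 called sets of G650, only 16 paired with a single gene in the platform annotation, and 70.3% carried the name prefix used for sets designed from predicted gene models, a prefix carried by 44.6% of all sets. In F1856 15 of 48 called sets paired with a single gene, and 41.7% carried the prefix. In D1137 394 of 824 paired with a single gene and 40.7% carried the prefix. In D2943 5 of 8 sets did the former and 2 of 8 the latter. G650 was thus the only 1 of the 4 in which the prefix was more frequent among called sets than on the array, and its count of called genes leaves most of its called sets out. The called sets of G650 had a median share of 0.0909 on the check, and 23.8% of them were at 0 there, against 44.5% of all sets. For the called sets of D1137, D2943 and F1856 52.2%, 75.0% and 45.8% were at 0 on the check.

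Along the chromosomes the called genes of the DEB alleles were scattered, those of F1856 lay in runs, and G650 had its run at CYP71P1 and otherwise single genes. D1137 had called genes on all 12 chromosomes, from 10 on chromosome 12 to 50 on chromosome 3, or from 1.1% of the measured genes on chromosome 12 to 2.25% on chromosome 5. Of its 302 called genes, 284 had no called neighbour, and 9 pairs of adjacent called genes were its longest runs. The 3 called genes of D2943 lay on 3 chromosomes. F1856 had called genes on chromosomes 2 and 12 only, in runs of 5, 5 and 2, and G650 had 1 run of 4 on chromosome 12 and 6 single genes on 5 other chromosomes. The share of called genes with a called neighbour was 100% in F1856, 40.0% in G650, 5.96% in D1137 and 0% in D2943. The radiation mean was 70.0% ± 42.4 and the DEB mean 2.98% ± 4.21 (SD, n = 2 each; exact permutation p = 0.333). The longest run was 4.5 ± 0.707 genes in the radiation alleles and 1.5 ± 0.707 in the DEB alleles (SD, n = 2 each; exact permutation p = 0.333). In F1856 the uncalled LOC4351929 split 10 called genes into 2 runs of 5. With 2 uncalled genes allowed inside a run, the means were 7 in the radiation alleles and 2 in the DEB alleles. Without such gaps the difference lay at CYP71P1 alone. Outside its neighbourhood the longest run was then 1 gene in G650, 2 in F1856, 2 in D1137 and 1 in D2943.

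**Figure D4:**
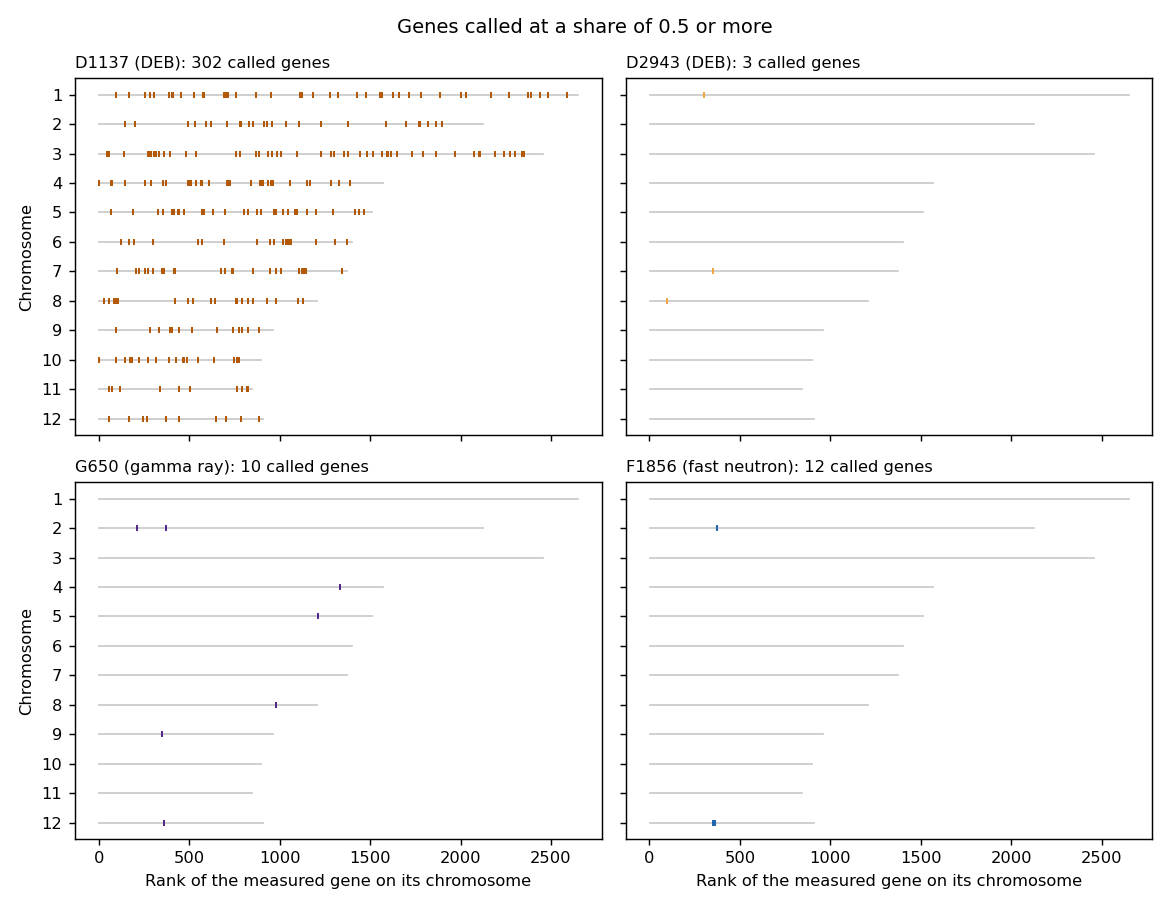
Called genes (ticks, share of 0.5 or more) on the 12 chromosomes of rice in each of the 4 alleles, placed by the rank of the measured gene on its chromosome (horizontal axis); the grey lines are the measured genes. D1137 has 302 ticks on all chromosomes, D2943 has 3, and the ticks of F1856 fall in only 2 places, on chromosomes 2 and 12.

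Outside the neighbourhood of CYP71P1, the called genes of D1137 numbered 301 (1.69% of 17852), those of D2943 3 (0.0168%), those of G650 6 (0.0336%) and those of F1856 2 (0.0112%). The wild type check had 1 (0.0056%). Neither radiation allele had a run of 3 or more called genes elsewhere. The 2 genes of F1856, LOC4328533 and LOC4328539, are adjacent measured genes on chromosome 2. Each had a share of 1 in F1856 and of 0 in D1137, D2943 and G650, with 0.0909 and 0 on the check. LOC4328533 also reached 0.545 in G6989, and LOC4328539 reached 0.5 in none of the 12 other lines. The gene just before this pair, LOC4328532, was called in G650 at 0.591 and stood at 0 in F1856 and both DEB alleles, with 0.136 on the check.

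The other called genes of G650 outside the neighbourhood stood alone. LOC4328285 on chromosome 2 and LOC107278854 on chromosome 9 had 0.818 each in G650 and 0 in the other 3 alleles, with 0.182 and 0.273 on the check. LOC4337198 on chromosome 4 had 0.545 in G650, 0.0909 in D2943 and 0 in the other 2. LOC4339433 on chromosome 5 had 0.545 in G650, 0.0909 in F1856 and 0 in both DEB alleles. LOC4328285, LOC107278854, LOC4328532, LOC4337198 and LOC4339433 each reached 0.5 in 1 or 2 of the 12 other mutant lines as well, which share the wild type reference. LOC4346036 on chromosome 8 had 0.545 in G650, 0.636 in D1137, 0.273 in D2943 and 0 in F1856. It reached 0.5 in none of the 12 others, where its highest share was 0.455.

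In D1137 the genes with the highest shares were single genes, of which 4 of the 5 named had lower shares above 0 in D2943, and some of these in G650 too. LOC4348259 on chromosome 10 had 1 in D1137, 0.364 in D2943, 0.273 in G650 and 0 in F1856. LOC4325816, annotated as OsCASPL1E1 and thus named as a member of a Casparian strip membrane protein-like family, had 0.909 in D1137, 0.273 in D2943, 0.182 in G650 and 0 in F1856. LOC4329278 on chromosome 2 had 0.909, 0.182, 0 and 0 in the same order, and LOC9271916 on chromosome 3 had 0.909, 0.273, 0.0909 and 0.0909. LOC4337129 on chromosome 4 had 0.875 in D1137 and 0 in each of the other alleles. Of these 5, 4 were above 0 in D2943 too, where 22.3% of all genes were above 0, and none was called there. LOC4348259, LOC4325816 and LOC9271916 were above 0 in G650 as well, where 96.5% of all genes were at 0. The overlap was thus not particular to the DEB alleles. The 5 were picked for their high shares in D1137, and the alleles share the wild type reference. The adjacent pairs of D1137 had lower shares, such as LOC4336277 and LOC4336278 with 0.636 and 0.545, and LOC4336928 and LOC4336929 with 0.545 and 0.636, all on chromosome 4.

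The 3 called genes of D2943 each lay just inside the threshold, at 0.545. LOC4326222 on chromosome 1 had 0.727 in D1137, 0.364 in G650 and 0.0909 in F1856. LOC4342729 on chromosome 7 had 0.636 in D1137, 0.455 in G650 and 0.182 in F1856, and LOC4344545 on chromosome 8 had 0.727, 0.182 and 0.182. All 3 stood at 0 on the wild type check and reached 0.5 in none of the 12 other lines. Some came close there, with highest shares of 0.455 at LOC4342729 and LOC4344545 and 0.273 at LOC4326222. The median of LOC4342729 over those lines was 0.318. All 4 alleles are set against the same wild type reference, so that these values are given side by side without a test.

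Besides CYP71P1 itself, the listed genes of the serotonin and tryptophan pathway and of other lesion mimic loci had shares near those of all genes. Of 19 names of serotonin and tryptophan genes, 7 loci were measured, among them ASA2 (anthranilate synthase), TDC2 (tryptophan decarboxylase, which makes the substrate of CYP71P1) and SNAT1 and ASMT1 (which take serotonin on towards melatonin). The highest share was 0.0909 in D1137 and in D2943, and all 7 were at 0 in G650 and F1856, where 96.5% and 95.9% of all genes were at 0. None of the 7 was called in any allele, with 1.69%, 0.0168%, 0.0559% and 0.067% of all genes called in D1137, D2943, G650 and F1856, so that lists of this size would hold few or no calls at the rate of all genes. Of 16 names of lesion mimic genes, 9 loci matched by symbol or synonym were measured and none was called, against the same shares over all genes. The names SPL7 and LOL2 each matched more than a single locus, so not every locus matched need be a lesion mimic gene. SPL18 (LOC4348247, an acyltransferase gene) had the highest share of these, 0.273 in D1137, with 0 in the other 3 alleles. All 9 were at 0 in both radiation alleles. The median was 0 for either list in each allele, as it was for all genes.

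Among the other cytochrome P450 genes, a single call was made, in D1137. Of 28 measured besides CYP71P1, 0 were called in D2943, G650 and F1856 and 1 in D1137, where 1.69% of all its genes were called. This was CYP74A4 (LOC4328743, allene oxide synthase of the jasmonate pathway), with 0.545 in D1137, 0.182 in D2943, 0 in G650 and 0.0909 in F1856. Its neighbour CYP74A3 (LOC4328742) had 0.273 in D1137 and CYP734A6 (LOC4325222) had 0.455, just below the threshold. In G650 all 28 were at 0 and in F1856 25 were, against 16 in D1137 and 21 in D2943. Over all genes 96.5% were at 0 in G650, 95.9% in F1856, 73.6% in D1137 and 77.7% in D2943, so that either share was higher in the radiation alleles.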

How the data were processed

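Genomic DNA of 16 mutant lines and a wild type check was labelled and hybridized to the Affymetrix Rice GeneChip, each scanned in duplicate with the scans averaged. The authors scaled the log2 perfect match signals of each array to wild type, without background correction, took log ratios to wild type probe by probe and flagged low probes (the submitters' processing notes name affy). The deposited values are the fraction of flagged probes per probe set. The methods name log2 ratios of -0.6 and -0.8 for flagging, and which of them underlies the deposited fraction was not stated in the sources used here. For each line that the paper counted at a proportion of 0.5, the called sets found here were nearer its count at -0.6 than at -0.8. They equalled neither count in any line, and the same held for the wild type check, with 11 called sets here. No probe intensities were used, so the precision rests on the number of probes per set and on the single deposited column per line.

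The fractions were used as deposited, with Python 3.11.15, numpy 2.4.6, pandas 2.3.3, scipy 1.17.1 and matplotlib 3.10.9. Of the 57194 sets, 57008 had shares within 0.02 of a whole number of 11 probes after multiplication by 11. Probe sets were paired with genes by the platform annotation: 22436 had 1 gene, 95 had several and 34663 had none, and only the first kind was used for genes. Of the genes, 3444 had several sets and took their median. Gene order came from the RefSeq table of ASM3414082v1, a japonica assembly; the order in IR64 may differ, and no coordinates were used. Calls were made at 0.5, a run was a row of adjacent called genes, and the neighbourhood was 25 measured genes on each side of CYP71P1. Group differences were tested by exact two-sided permutation of the 4 lines. Scripts were tested on simulated data.

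Genes were named by a rule: CYP71P1, genes called around it in any of the 4 alleles and the first uncalled genes past each run, the 5 highest called genes of each allele elsewhere (all 6 of G650 are given), genes called in more than 1 allele, the longest runs, and up to 4 genes of each list. The members and lists were chosen with earlier results of these data known. The settings varied were the threshold (0.4 and 0.6), an array median taken off each array, the check taken off each line, the highest share in place of the median, removal of sets called in many arrays, other neighbourhood sizes and gaps, leaving out each line, and adding G9799 and F2045.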

Additional observations from a re-analysis of the deposited data

Results flagged for a closer look

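Among the 9 other lines labelled gamma ray, which leave out d1, G6989 stood far from the rest in its number of called genes, 555. G9799 did so in its number of called genes around CYP71P1, 10. At single genes the same line G9799 stood apart with shares of 0.455 at LOC4351918, 0.818 at LOC4351919, 1 at LOC4351922, 0.909 at LOC4351923, 1 at LOC4351932, 0.636 at LOC4351938, 0.727 at LOC4351940, 0.909 at LOC4351944 and 0.636 at LOC4351945 (CYP71P1). G6989 stood apart at LOC4351964, with 0.409. A group of this size is marked by chance about 1 time in 20.

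At LOC4351938 and LOC4351940 both radiation alleles lay above the wild type check, with mean differences of 0.545 and 0.682. Both genes were named because they were called around CYP71P1, so high shares in the radiation alleles were part of that choice. The DEB alleles had a mean difference of -0.0909 at each gene. They stood at 0, the lowest possible share, and the check at 0.0909. The check had 55.5% of its sets above 0, so this difference cannot be told from its background. These differences were not tested.

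In lines outside the comparison, called genes within 25 genes of CYP71P1 numbered 10 in G9799, 9 in F2045, 2 in G282 and 2 in G6989, against 0 in the wild type check. G282 and G6989 had 237 and 555 called genes in all.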

How the results depend on the processing

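Of 96 alternative values of the group differences, 95 kept their direction. The exception was the difference in called probe sets, -255.5, which became 152.5 without D1137 and ranged from -663.5 to 152.5 on leaving out each line in turn. On leaving out each line, the difference at CYP71P1 ranged from 0.5 to 0.682, that of the neighbourhood mean from 0.0365 to 0.147, of called genes there from 3.5 to 9.5, of the longest run from 2.5 to 3.5, of the mean share from -0.0428 to -0.0116, of sets with a low share from -20.8 to -12.5 percentage points, and of called genes with a called neighbour from 37.0 to 97.0 percentage points. The difference in called sets with 9 or more flagged probes ranged from 35.5 to 51.5 percentage points (28.8 with G9799 and F2045 added, exact permutation p = 0.133) and that of neighbourhood minus rest from 0.0684 to 0.179, and these 2 comparisons and their alternatives were added after seeing the data.

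Counts moved with the threshold. At 0.4 and 0.6 the called sets were 1478 and 447 in D1137 and 22 and 3 in D2943, and the called genes were 534 and 151 in D1137 and 6 and 0 in D2943. G650 had 5 called genes at 0.6. With the check subtracted D1137 had 194 called genes, and with the highest share per gene D2943 had 5. The other 33 of 44 such counts stayed within 1.5 times. With G9799 and F2045 added as radiation lines, the test has 15 arrangements and a smallest p of 0.0667. That exact permutation p of 0.0667 was found for CYP71P1 (difference 0.568), the neighbourhood mean (0.132), called genes there (7.75) and called neighbours (73.5 percentage points), whereas the mean share (-0.0126, p = 0.467) and sets with a low share (-4.22 percentage points, p = 0.733) came nearer to 0. No test could pass 0.05 with 2 lines against 2, so none gained or lost a call.

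No value for called neighbours could be had at 0.6, where D2943 has no called gene. Counts of sets called in both alleles of a mutagen were not run, since all lines share the wild type reference. No paired analysis was possible because the labels number no replicates and each allele has 1 deposited column. CYP71P1 is covered by 22 probes, which limits each share there to steps of 1 probe.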

Other observations

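The control loci added a value for each allele. RGA1, the G protein alpha subunit gene of the dwarf1 locus, was at 0 in all 4 alleles and the wild type check, and at 0.909 in d1. The mitochondrial gene cob was at 0 in all 4 alleles. The chloroplast gene atpI was at 0.818 in G650 and at 0 in D1137, D2943 and F1856, with 0.0909 in the check and 0.636 in d1.

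D256, a further DEB line that is no spl1 allele in the sources used here, had 17 called sets and 2 called genes, a mean share of 0.00993 and no called set of 11 probes with 9 or more flagged. Its mean share was thus near those of G650 and F1856, and lower than those of D1137 and D2943.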
